A study of Homo sapiens with 4 samples.

Results

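Transcripts of 38 genes of G1/S entry and DNA replication were followed in U2OS cells, an established human osteosarcoma line, after knockdown of PURB, whose product binds purine-rich single strands of nucleic acid. The genes were chosen by name from their known roles, though with earlier results of these data known. All 38 were found among the 39519 named genes of the expression table. They were split by role into 14 genes of helicase loading and activation, 15 of the fork and its polymerases, 4 of nucleotide supply and 5 regulators around E2F and cyclin E. The 2 groups were sh-NC, control cells given DMSO (n = 2 libraries), and sh-PURB, cells with an inducible PURB hairpin switched on by doxycycline at 5.0 µg/ml for 72 h (n = 2 libraries). Doxycycline was given to the sh-PURB group alone, and effects of hairpin and drug cannot be told apart. The sh-NC libraries are called controls and the sh-PURB libraries knockdown libraries below. The labels do not say that libraries of a group came from separate cultures, nor whether the cells were 1 clone or used 1 hairpin, and p-values therefore reflect library-to-library spread that may be purely technical.

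Replication begins in G1, when the origin recognition complex, CDC6 and CDT1 load the MCM2-7 helicase on DNA. At the start of S phase, kinases and cyclin E with CDK2 turn the loaded rings into working helicases with CDC45 and GINS, and the fork proteins and nucleotide makers then copy the genome. Transcription of most of these genes is driven by E2F factors, which RB family proteins hold back, and the RB pathway is in turn tied to p53 through CDKN1A, the inhibitor p21.

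Values were TPM, a share of all transcripts scaled by length, so levels can be compared between genes but the read depth behind them is unknown. PURB itself stood at 5.29 and 6.55 TPM in controls against 2.46 and 2.69 TPM after knockdown, 43.5% of control (limma adjusted p = 0.102 over all tested genes). A handful of structured noncoding RNAs, led by the signal recognition particle RNA, made up 59.4% and 62.2% of the controls and 63.2% and 65.2% of the knockdown libraries, and rescaled values are given below for that reason. Of 9 bone and mesenchymal markers 4 reached 1 TPM in every library (RUNX2, COL1A1, SPARC and VIM). ALPL, BGLAP and COL1A2 stayed under 1 TPM, SP7 was at 0 in all but 1 library and TWIST1 was listed at 0 in all. Immune markers summed to 0.783 to 3.99 TPM and endothelial markers to 0.298 to 0.909 TPM. Of 6 epithelial markers KRT8 and KRT18 were at 84.2 to 115 TPM in each library, EPCAM at 1.79 to 2.44 TPM, and CDH1, KRT5 and KRT19 at 0.0563 to 1.02 TPM. Of 3 neural markers SYP alone reached 1 TPM in every library (1.75 to 3.02 TPM), and their sum was 2.91 to 4.80 TPM.

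As a whole the 38 genes lay slightly lower in sh-PURB, and no single gene passed the test. Their median difference on the log2(TPM + 1) scale was -0.17, against -0.06 for all 14269 tested genes, and 33 of 38 lay below 0, against 58.4% of all genes. Limma called 0 of the 38 at an adjusted p under 0.05, where it called 0.287% of all genes (0.203% below controls and 0.0841% above). At an unadjusted p under 0.05 it placed 5 genes lower, 13.2% of the 38 against 9.53% of all genes, and 0 genes higher, against 5.77%. The 5 were MCM4, GINS2, PCNA, TK1 and CCNE2. In 21 genes both sh-PURB libraries lay below both sh-NC libraries, 55.3% against 29.3% of all genes, and in 2 (TYMS and DTL) both lay above, against 18.6%. Ratios of mean TPM ran from 0.658 (CCNE2) to 1.13 (TYMS). An exact permutation test of 2 libraries against 2 cannot go below p = 0.333. In bulk RNA, fewer cells in S phase and less RNA per cell cannot be told apart.

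The 95% intervals from limma had a median half-width of 0.37 on the log2(TPM + 1) scale. In 37 of the 38 genes the interval lay within a 2-fold change of TPM + 1 either way, where 10990 of 14269 tested genes had such an interval, and the exception was RRM2, with an interval from -1.07 to 0.09. In 33 of the 38 genes the interval included 0, as it did in 12085 of the 14269 tested genes. The added 1 narrows these intervals for low genes such as CCNE2, whose interval from -0.95 to -0.08 reaches further in TPM itself.

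**Figure D1:**
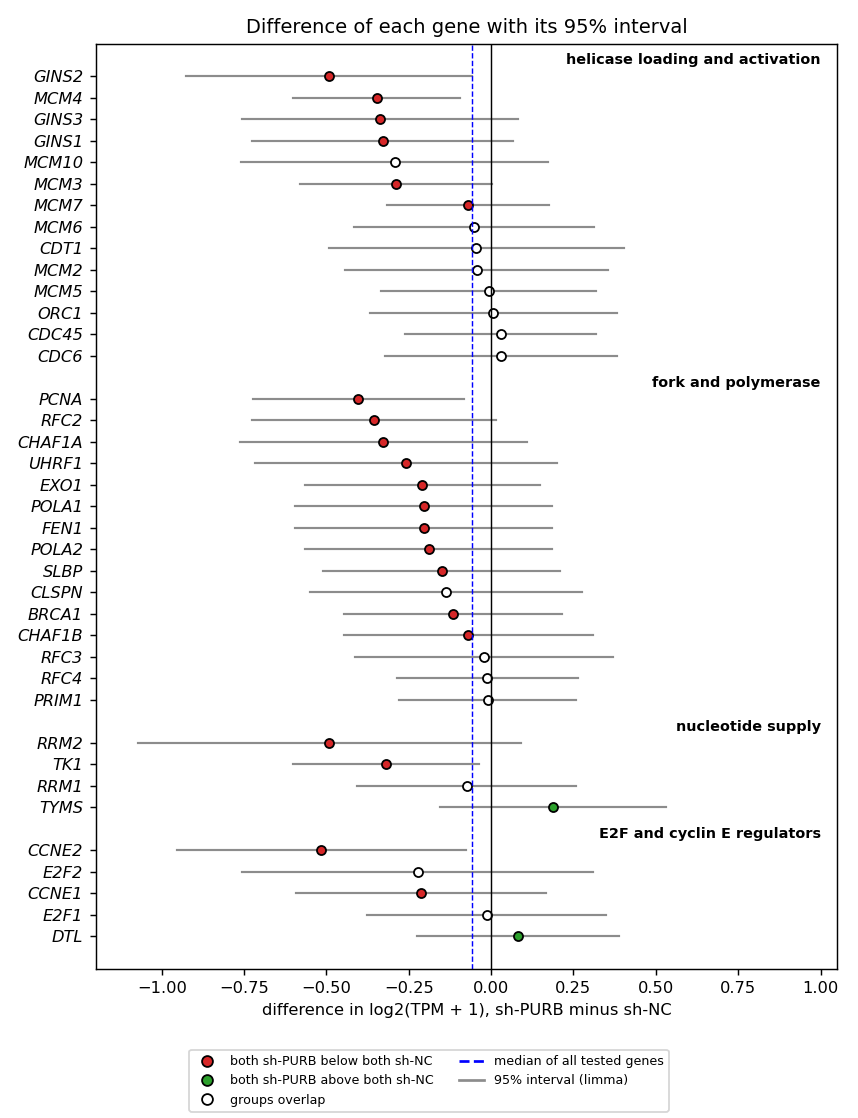
Each point is the difference in log2(TPM + 1), sh-PURB minus sh-NC, of 1 gene, with its 95% interval from limma as a grey line. Red points mark the 21 genes with both sh-PURB libraries below both sh-NC libraries, green the 2 with both above and white the rest, and the dashed line is the median of all tested genes (-0.06). The intervals of MCM4, GINS2, PCNA, TK1 and CCNE2 stay below 0.

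The size of the shift depended on scaling and on the libraries used. Recomputing TPM without the most abundant and the mitochondrial genes moved the median of all tested genes from -0.06 to 0.08, and the median of the 38 genes from -0.17 to -0.03. Relative to all genes the difference was -0.11 in both. Median-ratio rescaling gave -0.07 for the 38 genes and 0.03 for all genes, a relative difference of -0.10. With recomputed TPM, 20 of 38 genes lay below 0, against 40.4% of all genes. In that scaling both sh-PURB libraries lay below both controls in 8 genes and above them in 8, against 18.2% and 31.6% of all genes. The relative shift depended on replicate 2 of both groups. Without sh-NC replicate 2 the 38 genes stood at -0.08 and all genes at -0.02, a relative difference of -0.06. Without sh-PURB replicate 2 the 38 genes stood at -0.09 and all genes at -0.11, and without sh-PURB replicate 1 at -0.20 and -0.01.

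**Figure D2:**
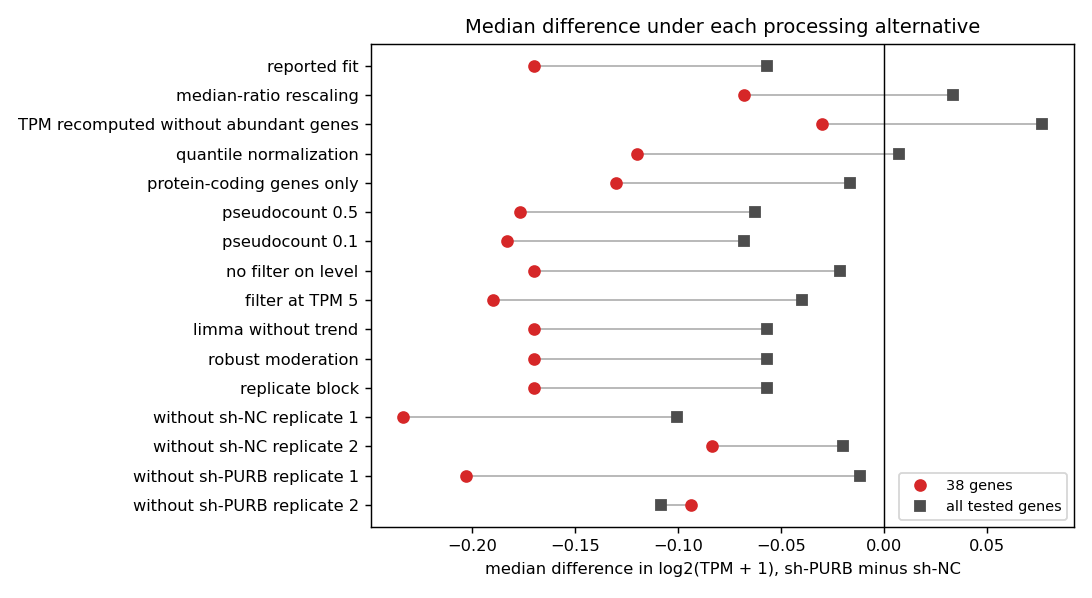
Median difference in log2(TPM + 1), sh-PURB minus sh-NC, of the 38 genes (red circles) and of all tested genes (grey squares) in the reported fit and in each of 15 processing alternatives. The red circle lies left of the square in every row but the last, without sh-PURB replicate 2. The rows without the limma trend, with robust moderation and with the replicate block repeat the reported medians, since those settings change only the test.

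The 2 libraries of each group were themselves apart in these genes. Of the 38 genes, 24 had their lowest value in sh-PURB replicate 2 and 25 their highest in sh-NC replicate 2. Replicate 2 lay below replicate 1 of sh-PURB in 29 of 38 genes, against 38.8% of all tested genes. In sh-NC, replicate 2 lay above replicate 1 in 30 of 38, against 60.5% of all tested genes. The summed level of the 38 genes was 785 and 853 TPM in controls against 754 and 706 TPM after knockdown, so the groups of the sum did not overlap, while the libraries of each group were further apart than the nearest libraries of the 2 groups.

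**Figure D3:**
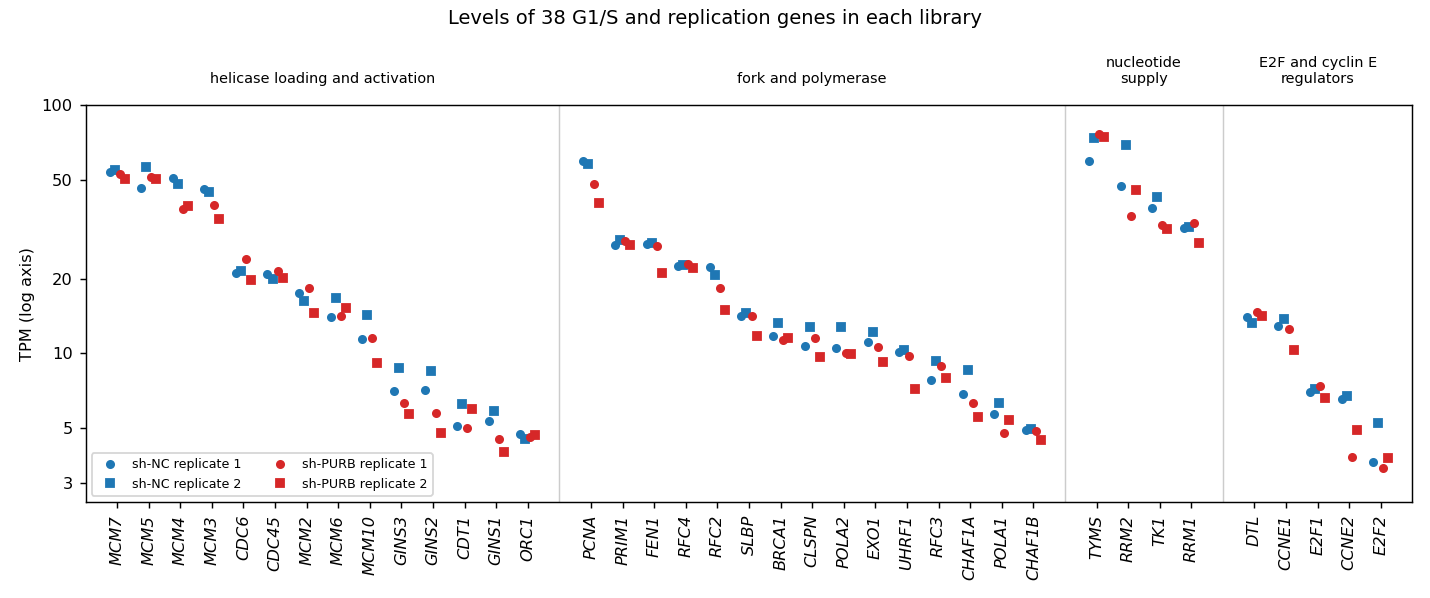
TPM on a log axis of each of the 38 genes in the 4 libraries, ordered within each role by the sh-NC mean. Blue is sh-NC and red sh-PURB, with circles for replicate 1 and squares for replicate 2. TYMS and MCM7 are among the highest and E2F2 and ORC1 among the lowest, and the red points sit below the blue ones in PCNA, MCM4 and GINS2.

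What these genes share by sequence was read from RefSeq promoter windows (GRCh38.p14, 250 bases before to 50 bases after a start), which matched 35 of the 38 genes with 46 windows. MCM4, MCM5 and CCNE2 had none. An E2F core, searched on both strands as TTCCCGC or TTGGCGC or TTCGCGC or TTGCCGC, was in 69.6% of these windows, against 13.0% of all 35116 windows and 19.0% of those of tested genes. A CCAAT box, the site of NF-Y, was in 58.7% of the windows against 34.6% of all. The CHR element TTTGAA, known from genes of mitosis, was in 1 of the 46 windows, that of RRM1, against 15.2% of all windows and 19 of 30 windows of G2/M genes. The 30 genes with an E2F core had a median difference of -0.13 and the 5 without one (MCM10, CDC45, FEN1, SLBP and CCNE1) of -0.21. Over all tested genes the medians were -0.07 with the E2F core and -0.05 without, and -0.10 with the CHR letters and -0.05 without. Letter matches are descriptions and not measured binding.

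The 250 bases before the start are shown for the 3 genes at an unadjusted p under 0.05 that had a window (GINS2, PCNA and TK1), for TYMS, the gene with the highest ratio, and for RFC4, whose groups overlapped at a ratio of 0.992. Capitals mark the E2F core and CCAAT letters, none of which overlap, and all runs read 5′ to 3′ on the strand of the gene. GINS2 is at chr16:85688955-85689204, minus strand, PCNA at chr20:5126623-5126872, minus strand, TK1 at chr17:78187205-78187454, minus strand, TYMS at chr18:657403-657652, plus strand and RFC4 at chr3:186806483-186806732, minus strand.
GINS2: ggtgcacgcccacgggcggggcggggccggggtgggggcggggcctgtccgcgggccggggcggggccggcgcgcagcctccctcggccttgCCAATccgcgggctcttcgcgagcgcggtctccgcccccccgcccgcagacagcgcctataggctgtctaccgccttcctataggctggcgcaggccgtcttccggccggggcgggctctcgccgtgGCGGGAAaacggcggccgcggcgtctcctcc
PCNA: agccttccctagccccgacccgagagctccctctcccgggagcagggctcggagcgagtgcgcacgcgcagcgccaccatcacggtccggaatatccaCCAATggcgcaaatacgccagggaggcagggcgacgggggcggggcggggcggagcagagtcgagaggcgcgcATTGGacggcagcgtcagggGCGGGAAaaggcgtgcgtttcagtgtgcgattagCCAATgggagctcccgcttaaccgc
TK1: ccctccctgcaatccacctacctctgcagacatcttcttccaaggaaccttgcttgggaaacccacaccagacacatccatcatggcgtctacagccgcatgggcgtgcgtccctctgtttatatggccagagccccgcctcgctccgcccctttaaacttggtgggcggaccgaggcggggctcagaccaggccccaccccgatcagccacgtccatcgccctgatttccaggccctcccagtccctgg
TYMS: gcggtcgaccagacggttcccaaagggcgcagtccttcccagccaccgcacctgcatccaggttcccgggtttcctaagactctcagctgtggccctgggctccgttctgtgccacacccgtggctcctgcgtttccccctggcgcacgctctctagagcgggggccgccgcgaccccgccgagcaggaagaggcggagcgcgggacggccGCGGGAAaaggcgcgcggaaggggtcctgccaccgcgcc
RFC4: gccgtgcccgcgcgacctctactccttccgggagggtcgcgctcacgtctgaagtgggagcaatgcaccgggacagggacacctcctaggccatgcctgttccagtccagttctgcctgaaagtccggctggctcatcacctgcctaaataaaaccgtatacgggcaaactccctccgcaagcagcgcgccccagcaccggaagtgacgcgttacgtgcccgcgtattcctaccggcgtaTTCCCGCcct
In these stretches GINS2 held 1 E2F core, 25 bases from the start, and 1 CCAAT box. PCNA held 1 E2F core, 53 bases from the start, between CCAAT boxes, of which it had 3. TK1 held none of these letters in this stretch, and its E2F core and CCAAT matches lie in the rest of its 2 windows. PCNA also had 2 windows. For both genes the window with the most GENCODE protein-coding transcript starts within 50 bases was shown, or the first when tied. The absence of letters in TK1 depends on that choice of start. TYMS held 1 E2F core 33 bases from the start and no CCAAT, and RFC4 1 E2F core 4 bases from the start.

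Genes of helicase loading and activation were split by ratio, with the loaders near control and the GINS subunits, MCM3, MCM4 and MCM10 lower. Of 14 genes 0 passed the adjusted test, 2 (14.3%, against 9.53% of all genes) were lower at an unadjusted p under 0.05, and 6 (42.9%, against 29.3%) had both sh-PURB libraries below both controls. The median difference of the 14 was -0.06, that of all tested genes, and it was above 0 with recomputed TPM (0.09) and with median-ratio rescaling (0.04). It was -0.17 without control replicate 1, -0.08 without control replicate 2, -0.15 without knockdown replicate 1 and -0.12 without knockdown replicate 2. All tested genes had medians of -0.10, -0.02, -0.01 and -0.11 in the same settings. The loaders ORC1 (origin recognition), CDC6 (which recruits the helicase) and CDT1 (its loading partner) had ratios of 1.01, 1.03 and 0.963, and their groups overlapped.

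MCM4, a subunit of the helicase ring (chromosome 8, 47960185 to 47978160 on GRCh38, the build of all gene positions given), was at 50.9 and 48.3 TPM in controls against 38.3 and 39.2 TPM after knockdown. Both sh-PURB libraries lay under both controls, close to each other. The ratio was 0.782 and the log2 difference -0.35 (SE 0.098, unadjusted p = 0.0171 and adjusted p = 0.213 in limma). MCM3, another subunit of the ring (chromosome 6, 52264009 to 52284881), was at 46.0 and 44.9 TPM in controls against 39.6 and 34.7 TPM after knockdown, a ratio of 0.817 (adjusted p = 0.332 in limma). MCM7, the most abundant of the 14, was at 53.7 and 54.7 TPM against 52.9 and 50.3 TPM. Its groups did not overlap, but the gap between them was under 1 TPM and the ratio 0.952 (adjusted p = 0.787 in limma). MCM2, MCM5 and MCM6 had ratios of 0.974, 0.990 and 0.958, with overlapping groups. All 6 ring subunits lay below 0 as deposited, and with recomputed TPM MCM2, MCM5, MCM6 and MCM7 lay above 0.

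Levels within the ring were unequal before knockdown. In sh-NC, MCM7, MCM5, MCM4 and MCM3 had mean levels of 54.2 ± 0.655, 51.4 ± 6.89, 49.6 ± 1.89 and 45.4 ± 0.826 TPM (SD, n = 2). MCM5 spanned the levels of its neighbours in that order and did not differ from them beyond its spread. MCM2 and MCM6 stood lower, at 16.9 ± 0.958 and 15.3 ± 1.94 TPM, and overlapped with each other.

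GINS2, of the 4-protein complex that joins the helicase at activation (chromosome 16, 85676198 to 85690073), was at 7.08 and 8.47 TPM in controls against 5.70 and 4.76 TPM after knockdown. The groups were apart, with a ratio of 0.673 and a log2 difference of -0.49 (SE 0.168, unadjusted p = 0.0330 and adjusted p = 0.276 in limma). GINS3 was at 7.05 and 8.67 TPM in controls against 6.30 and 5.68 TPM after knockdown (ratio 0.762, adjusted p = 0.405 in limma), and GINS1 at 5.34 and 5.83 TPM against 4.51 and 3.98 TPM (ratio 0.760, adjusted p = 0.398 in limma). All 3 had the 2 sh-PURB libraries below both controls in the values as deposited, where 29.3% of all tested genes did. GINS4, the other subunit, not among the 38 and looked up after the values were seen, was at 11.1 and 8.22 TPM against 7.28 and 8.82 TPM, so its groups overlapped. CDC45, the partner of GINS on the helicase, had a ratio of 1.02, and MCM10, an activation factor, one of 0.802, both with overlapping groups.

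Genes of the fork and its polymerases were the most uniform in direction as deposited. All 15 lay below 0 with a median of -0.19, 11 (73.3%, against 29.3% of all genes) had both sh-PURB libraries below both controls, 1 (6.67%, against 9.53%) was lower at an unadjusted p under 0.05 and 0 passed the adjusted test. With recomputed TPM the median was -0.05, against 0.08 for all tested genes, and BRCA1, CHAF1B, CLSPN, PRIM1, RFC3 and RFC4 lay above 0. Without sh-PURB replicate 2 the median of the 15 was -0.06, above that of all tested genes (-0.11).

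PCNA, the sliding clamp that tethers polymerases to DNA (chromosome 20, 5114953 to 5126626), was the most abundant of the 15. It was at 59.4 and 57.9 TPM in controls against 48.3 and 40.3 TPM after knockdown, and the sh-PURB libraries were both lower and more spread. The ratio was 0.755 and the log2 difference -0.40 (SE 0.124, unadjusted p = 0.0234 and adjusted p = 0.241 in limma). RFC2, a subunit of the loader that places PCNA on DNA, was at 22.2 and 20.8 TPM in controls against 18.3 and 14.9 TPM after knockdown (ratio 0.775, adjusted p = 0.341 in limma), with the groups apart. RFC3 and RFC4 of the same loader had ratios of 0.981 and 0.992, and their groups overlapped.

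CHAF1A, the large subunit of the chromatin assembly factor that places histones behind the fork, was at 6.84 and 8.57 TPM in controls against 6.29 and 5.53 TPM after knockdown (ratio 0.767, adjusted p = 0.430 in limma). Its partner CHAF1B had a ratio of 0.944. UHRF1, which helps copy DNA methylation, stood at 10.1 and 10.3 TPM in controls, and at 9.74 TPM in sh-PURB replicate 1 and 7.17 TPM in replicate 2, so most of its lower mean came from 1 library. The flap nuclease FEN1 showed the same pattern, with 27.6 and 27.8 TPM against 27.1 and 21.1 TPM, as did SLBP, the histone mRNA binding protein, with 14.2 and 14.6 TPM against 14.1 and 11.7 TPM.

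The primer-making enzyme had mixed ratios, 0.845 for its catalytic subunit POLA1, 0.862 for POLA2 and 0.992 for the primase PRIM1. EXO1, a repair nuclease, and BRCA1, a protein of fork protection and repair, had ratios of 0.855 and 0.915, with groups apart. CLSPN, the checkpoint mediator claspin, had a ratio of 0.901 with overlapping groups. None of these had a limma adjusted p under 0.5.

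The 4 nucleotide supply genes did not share a direction. TK1, thymidine kinase of the salvage route (chromosome 17, 78174075 to 78187233), was at 38.4 and 42.7 TPM in controls against 32.8 and 31.8 TPM after knockdown. The groups were apart, with a ratio of 0.796 and a log2 difference of -0.32 (SE 0.109, unadjusted p = 0.0337 and adjusted p = 0.278 in limma). TYMS, thymidylate synthase of the de novo route (chromosome 18, 657604 to 673578), had the highest mean of the 38 in sh-NC and in sh-PURB, at 59.6 and 73.9 TPM in controls against 76.5 and 74.9 TPM after knockdown. Its groups were apart in the upward direction, but sh-NC replicate 2 lay nearer to both sh-PURB values than to sh-NC replicate 1 (ratio 1.13, adjusted p = 0.569 in limma). The log2 difference was 0.19, and 0.03 without sh-NC replicate 1.

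RRM2, the regulated subunit of ribonucleotide reductase, was at 47.2 and 69.5 TPM in controls against 35.9 and 45.6 TPM after knockdown (ratio 0.699, adjusted p = 0.390 in limma). It had the widest spread between controls of the 38 genes, and sh-NC replicate 1 lay close to sh-PURB replicate 2. RRM1, the large subunit, had a ratio of 0.952 with overlapping groups. The median difference of the 4 genes was -0.20, and it was -0.05 with recomputed TPM, -0.09 with median-ratio rescaling and -0.12 without sh-PURB replicate 2. All tested genes had medians of -0.06, 0.08, 0.03 and -0.11 in the same settings.

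The 5 regulators had a median difference of -0.21, of -0.006 without control replicate 2 and of -0.08 without knockdown replicate 2. All tested genes had medians of -0.06, -0.02 and -0.11 in the same settings. Among the regulators CCNE2 was the lowest of all 38 genes by ratio. Cyclin E2, its product, activates CDK2 at the G1/S border (chromosome 8, 94879770 to 94896678). CCNE2 was at 6.50 and 6.70 TPM in controls against 3.79 and 4.91 TPM after knockdown. The groups were apart, with a ratio of 0.658 and a log2 difference of -0.52 (SE 0.170, unadjusted p = 0.0296 and adjusted p = 0.265 in limma). Its exons overlap those of INTS8 on the opposite strand. With no strand setting known, reads from the shared stretch cannot be told apart by strand, and the length of that stretch was not measured. The same limit holds for MCM2, MCM7, GINS2, RFC4, PRIM1, FEN1, CHAF1A and TYMS, whose exons overlap those of TPRA1, AP4M1, GSE1, EIF4A2, HSD17B6, TMEM258, UBXN6 and ENOSF1. Exons of POLA2, PRIM1, FEN1, BRCA1, CHAF1B and RRM2 also overlap those of genes on the same strand, where strand would not separate reads. Among these genes are NACA beside PRIM1, FADS2 beside FEN1 and MORC3 beside CHAF1B.

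CCNE1, the paralog, was at 12.8 and 13.7 TPM in controls against 12.5 and 10.3 TPM after knockdown (ratio 0.856, adjusted p = 0.561 in limma), with groups that just did not overlap. The activator E2F1 had a ratio of 0.990 and E2F2 one of 0.814, both with overlapping groups. DTL, which brings CDT1 to the ubiquitin ligase that destroys it in S phase, was the most abundant regulator, at 14.0 and 13.2 TPM in controls against 14.7 and 14.1 TPM after knockdown (ratio 1.06, adjusted p = 0.802 in limma). Its groups were apart by less than the spread within either.

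A ratio of 2 genes within a library does not depend on how that library is scaled, so all 28 pairs of subunits or paralogs within 8 complexes or families were compared. In 15 pairs, 53.6%, the 2 sh-PURB ratios lay outside the 2 sh-NC ratios, near the 48.9% found over all pairs of the 13749 tested genes above 0 in every library, so the count alone does not set these pairs apart. Within the ring, MCM4 relative to MCM7 was 0.948 and 0.883 in sh-NC and 0.725 and 0.778 in sh-PURB. MCM4 was lower against MCM5, MCM6 and MCM7 in both sh-PURB libraries, and MCM2 was higher against MCM4 and MCM3. RFC2 relative to RFC4 was 0.992 and 0.914 in sh-NC and 0.805 and 0.680 in sh-PURB. CHAF1A relative to CHAF1B was 1.39 and 1.74 against 1.30 and 1.24. CCNE1 relative to CCNE2 was 1.97 and 2.05 in sh-NC and 3.30 and 2.09 in sh-PURB, so 1 library carried most of that difference. RRM1 against RRM2 and E2F1 against E2F2 overlapped. Each exact two-sided permutation p was at least 0.333, the smallest that 2 against 2 libraries allow, over 28 comparisons.

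**Figure D4:**
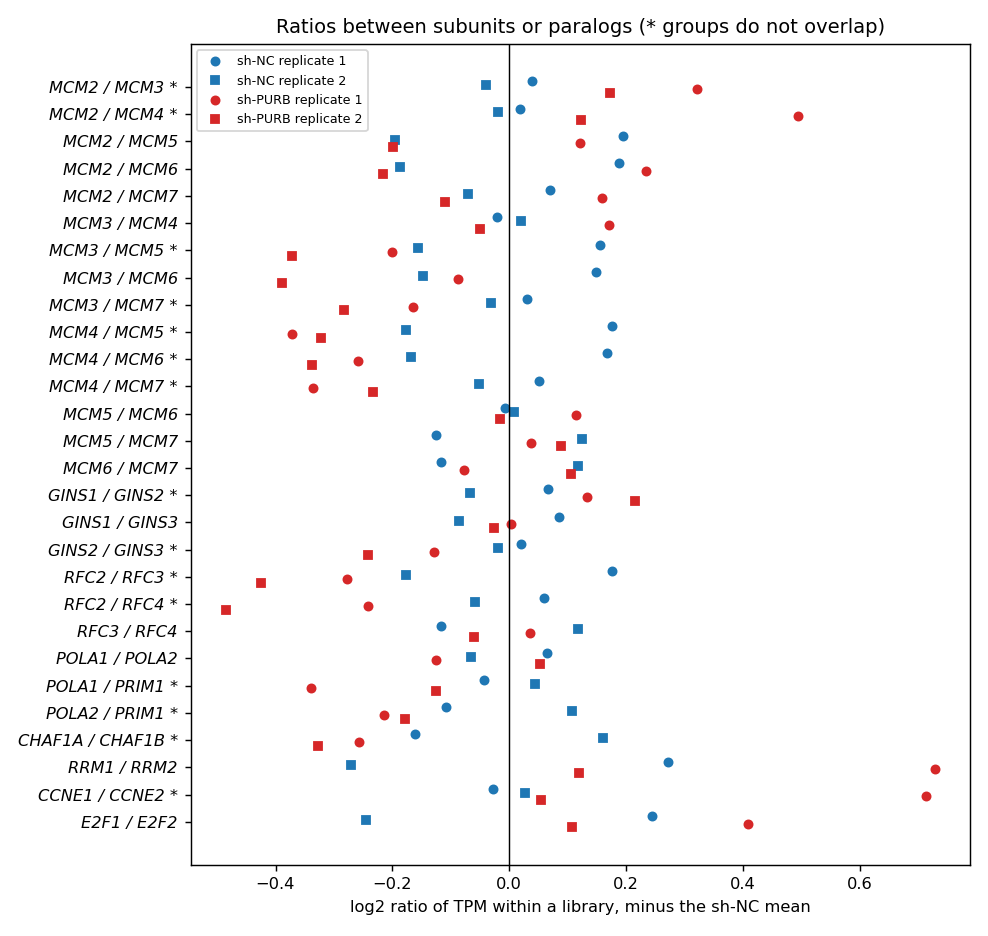
Log2 ratio of TPM between 2 genes within each library, minus the mean of the sh-NC libraries, for 28 pairs of subunits or paralogs, with blue for sh-NC and red for sh-PURB. An asterisk marks the 15 pairs whose groups do not overlap, among them MCM4 / MCM7 and RFC2 / RFC4, with both red points left of both blue ones.

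Other genes of the pathway, 104 in 4 lists set out by role, gave 0 calls at an adjusted p under 0.05 in limma. At an unadjusted p under 0.05, 11 of them (10.6%, against 9.53% of all genes) were lower, and 4 were higher, against 5.77% of all genes. Their median difference was -0.11, 35 (33.7%, against 29.3% of all genes) had both sh-PURB libraries below both controls and 15 (14.4%, against 18.6%) above them. Of 19 further loading genes, 0 were past that threshold in limma, and those with the smallest p were RECQL4, a helicase (ratio 0.702), ORC5 (1.21) and MCM8 (0.837). Of 40 further fork genes 5 (12.5%, against 9.53% of all genes) were lower and 1 was higher (5.77% of all genes) at that p, led by the histone chaperone ASF1B at 9.01 and 10.1 TPM in controls against 5.87 and 6.45 TPM after knockdown (adjusted p = 0.178 in limma). BARD1, the partner of BRCA1, had a ratio of 0.678 and the histone binding protein RBBP4 one of 0.816.

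In the nucleotide list 9 of 15 genes lay above 0, with a median of 0.07, and 40% lay below 0, against 58.4% of all genes. At an unadjusted p under 0.05 in limma 1 gene (GART) was higher, against 5.77% of all genes, and 0 were lower, against 9.53%. GART and PAICS of purine synthesis had ratios of 1.35 and 1.22, and RRM2B, a p53-induced reductase subunit, one of 1.21, with groups apart in all 3. Of 30 further G1/S regulators limma placed 6 lower (20%, against 9.53% of all genes) and 2 above controls by the same threshold, which 5.77% of all genes passed upward. The D cyclins were divided: CCND2 was at 25.6 and 32.9 TPM in controls against 50.2 and 55.7 TPM after knockdown (ratio 1.81, adjusted p = 0.102 in limma), while CCND3 was at 13.1 and 12.1 TPM against 7.69 and 5.65 TPM (ratio 0.530, adjusted p = 0.135 in limma). CCND1 was lower too, at 36.0 and 42.0 TPM in controls against 29.8 and 31.9 TPM after knockdown (ratio 0.790, adjusted p = 0.318 in limma). CDKN1A, which encodes p21, was at 36.5 and 48.5 TPM in controls against 73.8 and 67.9 TPM after knockdown (ratio 1.67, adjusted p = 0.143 in limma).

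Set beside 30 genes of G2 and mitosis, the replication genes lay closer to all genes in the values as deposited. The G2/M genes had a median difference of -0.29, and 28 of 30 lay below 0, against 58.4% of all genes. At an unadjusted p under 0.05 in limma 11 were lower, 36.7% against 13.2% of the replication genes and 9.53% of all genes. NUSAP1, TOP2A and KIF20A, of the spindle and of chromosome separation, had ratios of 0.573, 0.640 and 0.622 (adjusted p from 0.0812 to 0.106 in limma). The difference between the lists was not tested, and the G2/M list was not followed under rescaling or with a library left out.

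**Figure D5:**
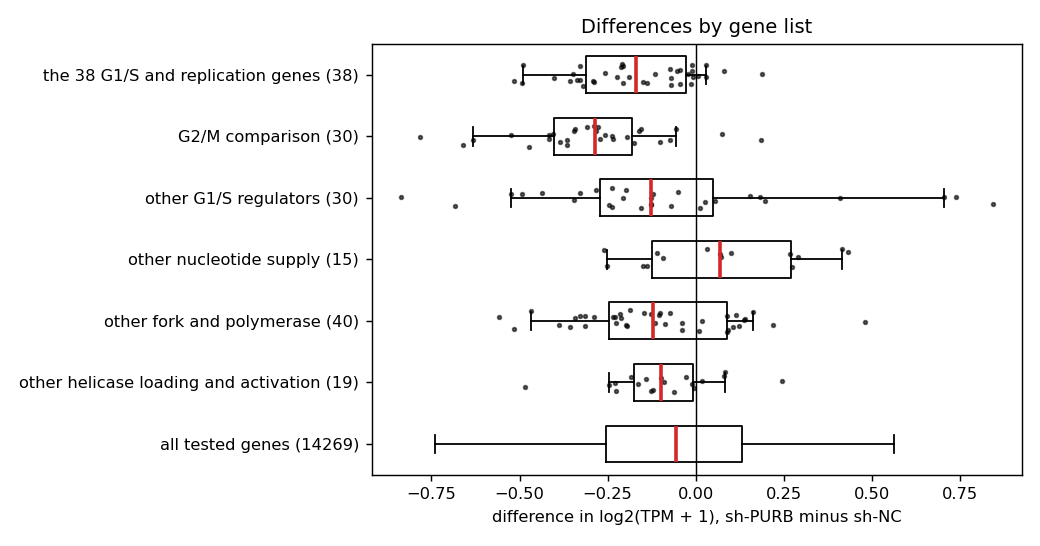
Differences in log2(TPM + 1), sh-PURB minus sh-NC, by gene list. Boxes span the quartiles with the median in red, whiskers the 5th to 95th percentiles, points are single genes, and the number of genes is in brackets. The 38 genes have a median of -0.17, between the G2/M genes (-0.29) and all tested genes (-0.06).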

How the data were processed

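Total RNA of 4 U2OS libraries, depleted of ribosomal RNA, was sequenced with Illumina TruSeq chemistry, per the labels' protocols. The authors deposited TPM per gene symbol, in 1 table of all samples and 1 for each library, and all 4 single tables were identical to it. Tools listed in the submitters' processing notes, without their roles, are kallisto 0.44.0, bcl2fastq 2.19, DESeq2 and sleuth. The same notes list a human build (GRCh38) and a mouse build (GRCm38). Strand setting and annotation release are not given in the sources used here. kallisto shares reads between similar transcripts. Of the 38 genes 7 have pseudogenes named after them in the table, at most 0.360 TPM in a library except BRCA1P1 (11.5 TPM), so BRCA1 is uncertain. In 13 genes exons overlap those of a gene on the opposite strand, up to 123 TPM for EIF4A2 beside RFC4 and 56.1 TPM for TMEM258 beside FEN1.

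A row with a blank name (0.921% to 1.66% of a library) was left out. Columns summed to 977570 to 981061, and TPM keeps no depth, so no counting interval can be given. Samples were grouped by title. The 14269 genes reaching 1 TPM in 2 or more libraries entered limma 3.58.1 (R 4.3.3) as log2(TPM + 1), with a mean-variance trend and p-values adjusted by Benjamini-Hochberg across the whole set at 0.05, with 2 residual and 2.92 prior degrees of freedom. The added 1 shrinks differences of low genes, so ratios of group mean TPM are given too. Coordinates are from GENCODE release 29 on GRCh38. The fit was tested on simulated data, where it missed most 2-fold changes, so a gene without a call is not shown to be unchanged. Rescaled alternatives kept the same genes, less those they leave out, and where values were rescaled to a larger sum the added 1 weighs less.

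The 38 genes and all lists were chosen with earlier results of these data known. All 38 are named. Library values and tests were given for genes at an unadjusted p under 0.05, for up to 3 per role with the largest differences either way among those whose groups did not overlap, and for the most abundant of each role. From each other list up to 3 genes with the smallest p were named, with PURB and CDKN1A. GINS4, CCND1, further library values and the pairs of genes were chosen after values were seen. Figures were drawn with matplotlib 3.10.9.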

Additional observations from a re-analysis of the deposited data

How the results depend on the processing

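Limma called 0 of the 38 genes under each of 15 alternatives (smallest adjusted p = 0.110, RRM2 with the replicate block). At an unadjusted p under 0.05, 5 were lower, and 0 with recomputed TPM (5.91% of all genes), 1 with median-ratio rescaling (6.95%), 3 without the limma trend (9.49%) and 8 with the replicate block (14%). With 1 library left out the number was 0 to 5, with 1 when control replicate 1 (6.77% of all genes), 0 when control replicate 2 (4.71%), 5 when knockdown replicate 1 (5.64%) and 2 when knockdown replicate 2 (10.6%) was dropped. Their median was -0.0301 with recomputed TPM, -0.0679 with median-ratio rescaling and -0.233 to -0.0833 with 1 library left out. Over all genes limma called 41, and 84 with median-ratio rescaling, 118 with quantile normalization, 404 among protein-coding genes, 121 with the filter at TPM 5, 125 with robust moderation, 118 with the replicate block, and 0 with a pseudocount of 0.1, no filter, no trend or any 1 library left out, which leaves 1 residual degree of freedom and assumes the lone library varies like the other group. The cause was not tested.

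Deviations of same-numbered libraries from their group means were correlated across genes (Pearson 0.193 over all tested genes, 0.410 over the 38). This measure leaves out the mean deviation of each library. In the 38 genes that mean ran opposite ways, with replicate 2 above replicate 1 in 30 genes of sh-NC and below it in 29 of sh-PURB. With only 2 pairs, the correlation does not show that the numbers pair the samples.

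The direction held throughout for 22 genes, 20 lower and 2 higher (TYMS and DTL), and 16 crossed 0, none with a call. The limma trend, robust moderation, the replicate block and the filters on level could not change the difference of a gene, so they do not bear on direction. Log2 differences that crossed were BRCA1 0.0272, CDT1 0.0946, CHAF1B 0.0647, CLSPN 0.00342, E2F1 0.131, MCM2 0.104, MCM5 0.144, MCM6 0.0944, MCM7 0.0817, PRIM1 0.14, RFC3 0.124, RFC4 0.139 and RRM1 0.0757 with recomputed TPM. They were CDT1 0.0483, CHAF1B 0.0225, E2F1 0.0831, MCM2 0.0605, MCM5 0.1003, MCM6 0.04998, MCM7 0.0384, PRIM1 0.0956, RFC3 0.0777, RFC4 0.0943 and RRM1 0.0327 with median-ratio rescaling. They were E2F1 0.0339, MCM2 0.0044, MCM5 0.0432, PRIM1 0.0397, RFC3 0.0265 and RFC4 0.0391 among protein-coding genes and CDT1 0.0253, E2F1 0.0499, RFC3 0.0316 and RFC4 0.023 with quantile normalization. With 1 library left out the ranges of those that crossed were CDC45 -0.0131 to 0.0701, CDC6 -0.105 to 0.164, CDT1 -0.171 to 0.081, E2F1 -0.0874 to 0.0595, MCM2 -0.203 to 0.116, MCM5 -0.142 to 0.127, MCM6 -0.175 to 0.0682, ORC1 -0.0205 to 0.0333, PRIM1 -0.0392 to 0.0177, RFC3 -0.135 to 0.092, RFC4 -0.0365 to 0.0141, RRM1 -0.203 to 0.0542. TPM keeps no depth, so counting error is unknown, and 2 libraries a group limit precision.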
